A study of Mus musculus with 8 samples.

Results

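Heavy polysomal RNA was compared with total cytoplasmic RNA in wild-type (WT) mouse embryonic fibroblasts, across every array probe with a gene symbol. The comparison used 4 of the 8 arrays of the study: 2 of polysomal and 2 of total RNA, with 1 of each kind from each of 2 independent experiments. Of the 25697 probes, 23978 carried a gene symbol. Keeping the brightest probe of each gene above the median of all probe means left 8832 tested genes of 16593 on the array.

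The cells were 1 WT line of fibroblasts from embryos at day 14.5, immortalised by passage and grown in DMEM with 10% serum. The other 4 arrays came from 1 line, grown and handled alike, with a knock-in (KI) of eIF4E that cannot be phosphorylated, and an effect of the genotype cannot be told apart from one of the line. They enter here for the shared estimate of the spread and for the test of the difference between the lines. Heavy polysomal RNA was the pool of gradient fractions in which an mRNA carried more than 3 ribosomes, and 250 ng of either RNA was labelled for an Illumina bead array.

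An mRNA in use by the cell carries several ribosomes in a row, and a sucrose gradient sorts mRNAs by that number. The number rises with how often translation starts and with how long the coding region takes to read, and mRNAs that are stored, repressed or very short sit in lighter fractions. Since total RNA holds the light and the heavy fractions together, a gene's polysomal signal less its total signal gives its standing in the heavy pool relative to the other genes on the array. Equal amounts of RNA were labelled and the arrays were brought to nearly the same median, so a positive difference does not give the share of an mRNA's copies that carried ribosomes. In bulk RNA, fewer cells with an mRNA and less of it per cell cannot be told apart.

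The values are the authors' processed signals, read here as log2. They ran from 7.48 to 15.796, and values near the array medians, 7.690 to 7.732, mark a dim probe whose fold is understated. Of 11 listed fibroblast genes 10 were on the array, and all 10 were above the filter, which 8832 of 16593 genes passed. They ranged from the intermediate filament gene Vim, at 12.48 and 11.72 in total RNA, to Pdgfrb, at 7.85 and 8.31. Of the other markers on the array, 4 of 7 neural, 3 of 8 epithelial, 3 of 6 muscle and 1 of 7 endothelial genes also passed. Among them the neural marker Nes read 9.22 and 9.70 in total RNA. None of the 8 measured macrophage and blood markers exceeded 7.68 on any WT array. The WT total arrays resembled each other less than the WT polysomal arrays did, with correlations of 0.970 and 0.991. Across lines, WT and KI total arrays correlated at 0.970 in experiment 1 and at 0.982 in experiment 2, so the correlations single out neither WT total array. The WT total arrays differed by more than 1 log2 unit for 351 genes, the WT polysomal arrays for 44. Epithelial and muscle genes were among those differing in total RNA, with the keratin gene Krt19 at 8.32 in experiment 1 and 9.80 in experiment 2. Their part in the results was not tested. Each main count is therefore also given without single arrays.

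The leading mRNAs of the heavy pool included ones for RNA-binding and chromatin proteins, and those most reduced in it included ones for very small proteins, some of them mitochondrial. In all, 1859 of the 8832 genes rose in polysomal RNA and 1490 fell at a limma adjusted p below 0.05, that is 21% and 16.9%. The median log2 difference was 0.95 among the genes that rose and fell by 0.93 among those that fell. By a stricter rule, which also asked for a difference over 1 log2 unit, 9.78% rose and 7.48% fell. In the plot of the 2 experiments, the differences correlated at 0.855 across genes, which are not independent replicates. All 3349 passing genes had the same sign in both. The call itself nearly ensures this, since it asks for a difference that is large against the spread of the same arrays. Experiment 2 had the wider spread, with a standard deviation of 0.96 against 0.74 in experiment 1. Leaving out 1 WT array gave 1826 higher and 1607 lower without total replicate 1, 1105 and 926 without total replicate 2, 1008 and 700 without polysomal replicate 1, and 851 and 556 without polysomal replicate 2. Some calls can follow from the filter, since a gene dim in one RNA may be tested only because of the other. Of the genes that rose, 634 had a total mean below 8, against 2896 of all 8832 tested genes. Of those that fell, 209 had a polysomal mean below 8, against 2676 of all tested genes. The level of 8 lies above the filter, so not every such gene needed the other RNA to be tested.

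**Figure D1:**
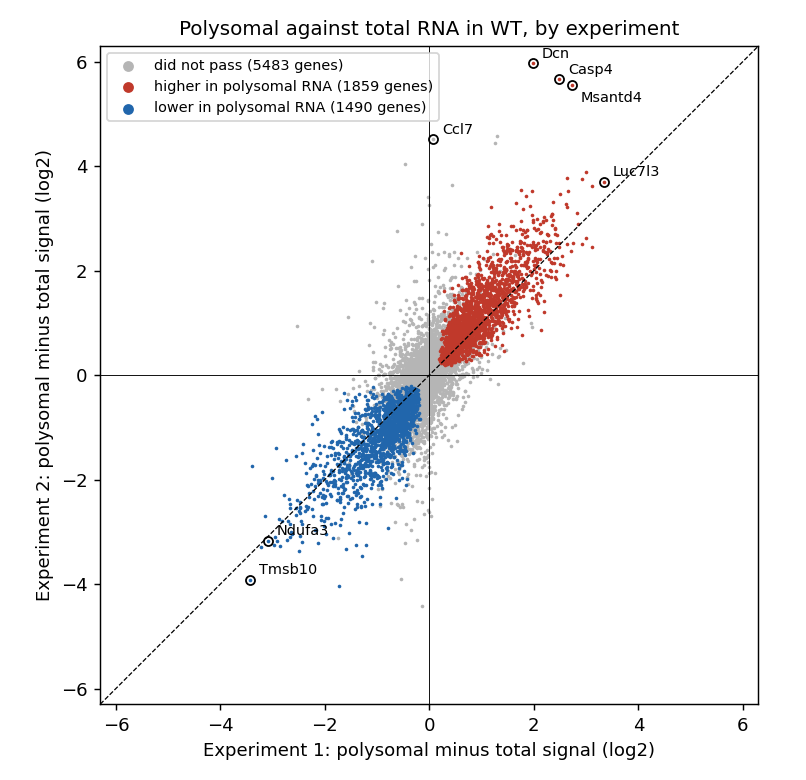
Each point is 1 of 8832 genes, placed by its polysomal minus total difference (log2) in experiment 1 (x axis) and experiment 2 (y axis), with equality dashed. The 1859 genes that rose and the 1490 that fell lie in the upper right and lower left, while Ccl7, at 0.08 and 4.51, shows a difference in experiment 2 alone.

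Among the genes chosen as the 10 largest rises, 6 kept their call without any single array. Luc7l3, which encodes a protein of the splicing machinery, read 9.004 and 9.013 in total RNA and 12.34 and 12.71 in polysomal RNA. The splicing regulator gene Hnrnph1 read 9.04 and 8.61 in total and 12.15 and 12.23 in polysomal RNA. The histone chaperone gene Nap1l1 read 10.20 and 9.57 against 13.12 and 13.32. In these 3 genes every polysomal array lay at least 2 units above every total array. The log2 differences were 3.52 ± 0.22 for Luc7l3 (SE, n = 2 arrays per group, here and below; limma adjusted p = 0.000803), 3.36 ± 0.15 for Hnrnph1 (0.000565) and 3.33 ± 0.22 for Nap1l1 (0.000819). Other probes of these genes were also positive, from 0.78 to 3.27 for Hnrnph1.

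Oxct1, which encodes a mitochondrial enzyme of ketone body use, G3bp2, a stress granule protein gene, and Rbbp7, a histone-binding protein gene, rose by 3.45 ± 0.29, 3.21 ± 0.31 and 2.98 ± 0.43 (limma adjusted p = 0.00164, 0.002 and 0.00516). Other probes read 1.49 and 2.13 for G3bp2 and 0.68 to 2.83 for Rbbp7. The remaining 4 leaders had wider errors. The matrix proteoglycan gene Dcn read 11.91 and 8.09 in total RNA and 13.89 and 14.05 in polysomal RNA, so the total arrays lay far apart where the polysomal arrays nearly met. The caspase gene Casp4, a sensor of bacterial wall material, read 9.55 and 7.66 in total against 12.03 and 13.33. Its other probes gave differences of 0.60 and 2.99. Msantd4, of unsettled function, read 11.34 and 8.96 against 14.06 and 14.50, and Birc2, an inhibitor of apoptosis, 9.68 and 9.60 against 12.33 and 13.12. The WT arrays of Birc2 lay close together, and its KI arrays, which share in the error, read 7.89 and 9.26 in total and 9.26 and 11.34 in polysomal RNA. Their log2 differences were 3.97 ± 1.13 for Dcn, 4.08 ± 0.71 for Casp4, 4.13 ± 1.02 for Msantd4 and 3.09 ± 0.77 for Birc2 (limma adjusted p = 0.0386, 0.00889, 0.0256 and 0.0261). Without polysomal replicate 2 none of the 4 passed (adjusted p = 0.148, 0.0539, 0.12 and 0.132), and without total replicate 2 Msantd4 and Birc2 did not (0.1 and 0.0993). Without polysomal replicate 1 Dcn, Msantd4 and Birc2 did not (0.128, 0.0898 and 0.073), and without total replicate 1 Birc2 did not (0.0708). Dcn also lost its call without any single KI array (0.0662 or 0.0678), while it passed without either WT total array. Casp4, Msantd4 and Birc2 all lie on mouse chromosome 9, which was looked up after their values were seen.

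The 10 largest falls were steadier. Tmsb10, which encodes the actin-binding peptide thymosin beta 10, read 13.47 and 13.70 in total RNA and 10.03 and 9.78 in polysomal RNA. Ndufa3, for a small subunit of respiratory complex I, read 12.74 and 12.96 against 9.65 and 9.79. Ost4, for a tiny subunit of the enzyme that attaches sugars in the endoplasmic reticulum, read 12.76 and 12.86 against 9.79 and 9.61. All 3 were bright in total RNA and about 3 units dimmer on both polysomal arrays. Tmsb10 fell by 3.68 ± 0.14 (a 12.8-fold lower relative signal; limma adjusted p = 0.000565), Ndufa3 by 3.13 ± 0.13 (0.000565) and Ost4 by 3.11 ± 0.20 (0.000803). The others were Bola2, for an iron-sulphur cluster protein (-3.26), Tmem256 (-3.07), the lipid peroxidase gene Gpx4 (-3.05), the depalmitoylase gene Abhd17a (-3.03), the secreted factor gene Metrn (-2.94), Cmtm4 (-2.93) and Cox8a, for a small subunit of cytochrome oxidase (-2.92). Their limma adjusted p lay between 0.000565 and 0.00724, and all 10 passed without any single array. The second Gpx4 probe read only -0.94.

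**Figure D2:**
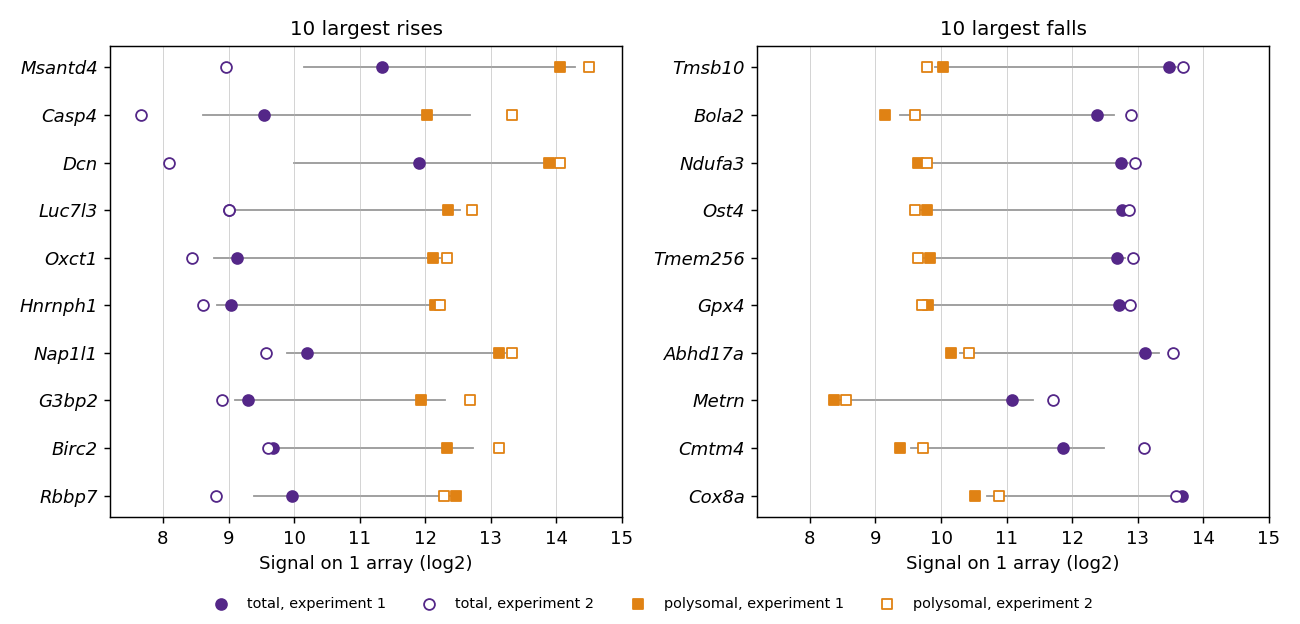
Signal (log2, x axis) of the 10 genes with the largest rise and the 10 with the largest fall on each WT array, with total RNA as circles, polysomal RNA as squares, experiment 2 as open symbols and a line joining group means. Total replicate 2 lies far left of total replicate 1 for Msantd4, Casp4 and Dcn; among the 10 falling genes the total arrays lie widest apart for Cmtm4, at 11.86 and 13.10.

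Gene lists showed which machinery these genes belonged to, and each is given by its counts and its median beside the 21% higher, 16.9% lower and median of -0.01 over all tested genes. Members named are mostly those with the smallest p in their list, so their values stand above the list's typical member. In the chart of list medians, the lists of chaperones, splicing factors and proteasome subunits lay on the positive side in both experiments. Respiratory chain, histone, selenoprotein and small protein genes lay on the negative side in both.

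**Figure D3:**
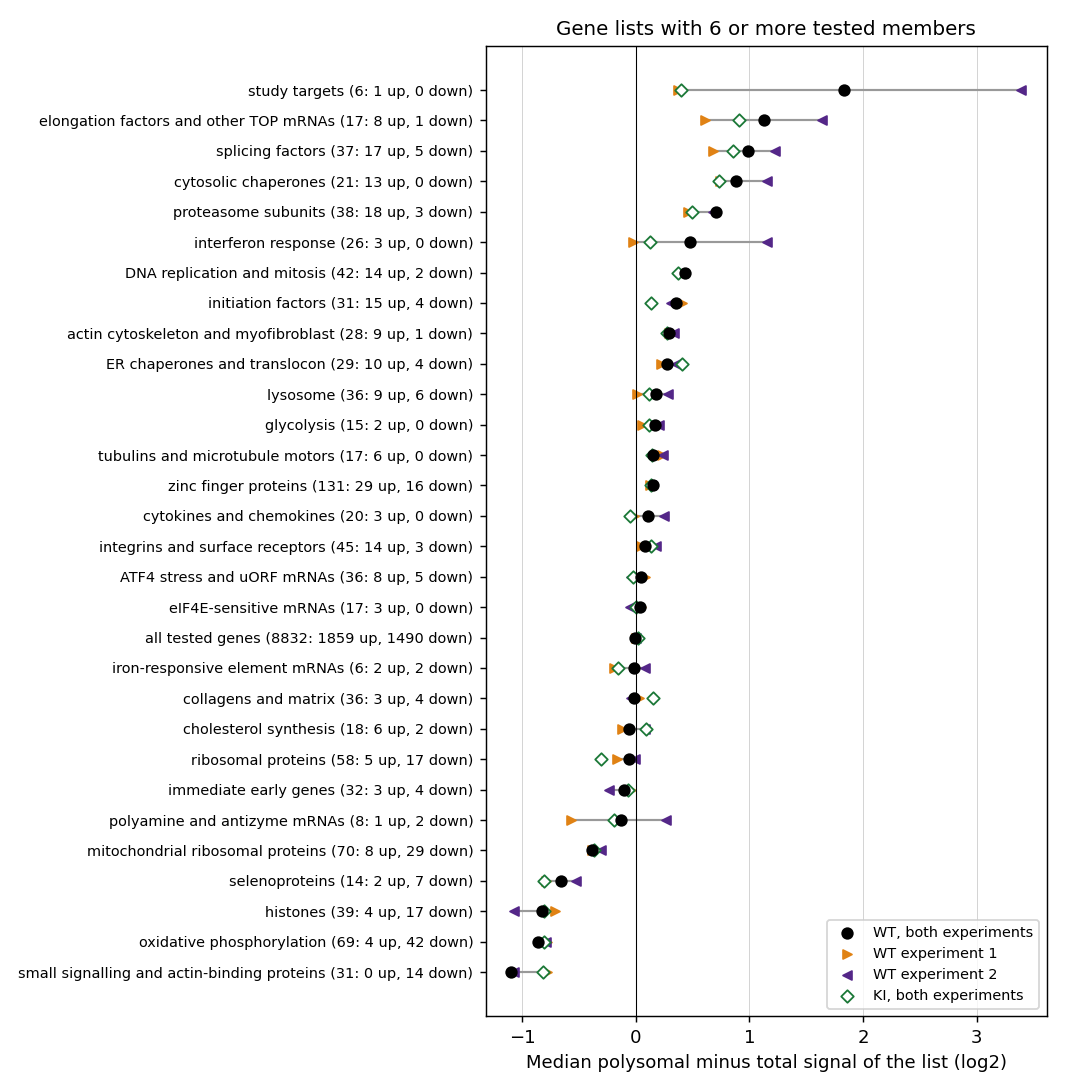
Median polysomal minus total difference (log2, x axis) of each list with 6 or more tested members, in WT over both experiments (black), in each WT experiment (triangles) and in KI (open diamonds), with the tested members and those passing up or down in brackets. Medians run from -1.09 for small signalling and actin-binding proteins to 1.13 for elongation factors and other TOP mRNAs, apart from the study's targets, whose medians of 0.37 and 3.39 differ by experiment.

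The respiratory chain makes ATP in the mitochondrion, and its nuclear genes were the list most often lower. Of 69 tested genes of oxidative phosphorylation, 42 fell and 4 rose, with a median of -0.86 (-0.78 and -0.79 in the experiments). Cox7c, a subunit of complex IV, read 13.32 and 13.36 in total RNA and 10.85 and 10.92 in polysomal RNA. Atp5j2, a subunit of the ATP synthase, read 14.25 and 14.21 against 11.70 and 11.67. The arrays of each RNA nearly coincided in both genes. Cox7c fell by 2.45 ± 0.11 and Atp5j2 by 2.55 ± 0.13 (limma adjusted p = 0.000565 and 0.000631), and Cox6b1, another subunit of complex IV, by 2.83 ± 0.15 (0.000653). Of complex IV 9 of 11 genes fell, and of the accessory subunits of complex I 17 of 27 fell and 1 rose. Of the catalytic core of complex I 2 of 5 fell, and the others read 0.35, 0.44 and 0.57 without passing. Complex V held 8 genes that fell and 2 that rose, the latter being the catalytic subunit gene Atp5b (0.61) and Atp5pb, for the stalk (1.94). These single members were picked after their values were seen, and Atp5b did not pass without 5 of the 8 arrays in turn, Atp5pb without 2. Without single WT arrays, 21 to 38 members of the whole list fell, the fewest without polysomal replicate 2.

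Mitochondrial ribosomes translate the genes of the organelle's own DNA. Of 70 tested genes for their proteins, 29 fell and 8 rose, with a median of -0.38. Mrpl54 read 13.48 and 13.59 in total against 10.78 and 10.79 in polysomal RNA, and fell by 2.75 ± 0.14 (limma adjusted p = 0.000577). Mrpl53 fell by 2.78 ± 0.21 and Mrps21 by 2.54 ± 0.15 (0.00128 and 0.000706). Without single WT arrays 16 to 25 members fell, the fewest without polysomal replicate 2.

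Cytosolic ribosomal protein mRNAs belong to the TOP class, which begin with a run of pyrimidines and whose loading answers to growth signals. They were very bright, with a median total signal of 13.99, and spread on both sides of 0: of 58 tested genes, 17 fell, 5 rose and 36 did not pass, and the median was -0.06. Rps27, of the small subunit, read 13.96 and 13.95 in total and 12.08 and 12.14 in polysomal RNA. Fau, whose product holds a small subunit protein, read 14.45 and 14.60 against 13.41 and 13.44. Rpl39, of the large subunit, read 14.36 and 14.32 against 13.04 and 12.78. The groups lay clear of each other in all 3, which fell by 1.84 ± 0.15, 1.10 ± 0.11 and 1.43 ± 0.16 (limma adjusted p = 0.0016, 0.00223 and 0.00251). In contrast Rps6, the phosphorylated protein of the small subunit, read 13.78 and 11.63 in total RNA and 14.10 and 14.33 in polysomal RNA, a difference of 1.51 that did not pass (adjusted p = 0.182), with total replicate 2 the low array. Without total replicate 1, 12 members rose and 14 fell, and without total replicate 2, 2 rose and 18 fell. Without either polysomal array 9 fell and the rest did not pass.

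The starts of these genes were read from RefSeq (GRCm38.p6) for a C at the annotated start followed by at least 4 pyrimidines, on the gene's own strand. Shown are the 6 ribosomal protein genes with that motif that fell, then Rps6 and Nap1l1, which had positive differences. Each line spans 10 bases before to 20 bases from the start, and capitals mark the pyrimidine run at the start.
Rps27 (chr3:90213629-90213658, minus strand): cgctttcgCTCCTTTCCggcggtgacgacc
Fau (chr19:6057937-6057966, plus strand): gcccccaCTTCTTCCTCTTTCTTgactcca
Rpl35a (chr16:33056472-33056501, plus strand): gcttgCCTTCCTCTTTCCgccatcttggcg
Rps21 (chr2:180257369-180257398, plus strand): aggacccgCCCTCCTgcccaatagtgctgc
Rpl28 (chr7:4792955-4792984, plus strand): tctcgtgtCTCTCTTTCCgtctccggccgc
Rpl35 (chr2:39005112-39005141, minus strand): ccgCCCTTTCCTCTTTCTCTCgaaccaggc
Rps6 (chr4:86857348-86857377, minus strand): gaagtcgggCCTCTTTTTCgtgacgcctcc
Nap1l1 (chr10:111473217-111473246, plus strand): gctctcgggtCTTTTTTagcgccatctgct
The motif was present at 2.51% of all 32851 RefSeq starts. Among the 11 tested ribosomal protein genes that had it, 6 fell and 5 did not pass, and among the 39 with a listed start lacking it 11 fell and 4 rose. Over all 211 tested genes with the motif, 22.7% rose and 20.4% fell, against 21.4% and 17.3% of the 7005 without. A match is a description of these letters only, and annotated starts can miss the start used in these cells. The share of G and C in the first 50 bases had a Spearman correlation of -0.04 with the difference over 7216 genes, given as a description.

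Other mRNAs listed as TOP encode elongation factors and RNA-binding proteins. Among those with a listed start, only Eif3f and Nap1l1 had the motif described above, so membership rests on the list. Of 17 tested genes, 8 rose and 1 fell, with a median of 1.13 (0.61 and 1.64 in the experiments). Npm1, for the nucleolar chaperone nucleophosmin, read 12.38 and 12.49 in total and 14.63 and 14.81 in polysomal RNA, and rose by 2.29 ± 0.33 (limma adjusted p = 0.00519). Hnrnpa1, for a nuclear RNA-binding protein, read 9.65 and 9.10 against 11.76 and 11.82, and rose by 2.41 ± 0.26 (0.0024). Its other probe gave 1.03. The elongation factor genes were nearer to 0, with Eef2 at -0.03, Eef1b2 at 0.40, Eef1g at 0.42 and Eef1d at 0.39, of which Eef1g and Eef1d rose but lost the call without 6 of the 8 arrays in turn; they were picked after their values were seen. The single fall was Eif3k (-0.51), lost without 7 of the arrays in turn. Without total replicate 2, or without either polysomal array, 4 members rose.

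Initiation factors bring the mRNA, the first tRNA and the ribosome together. Of 31 tested genes, 15 rose and 4 fell. Eif2s3x, for a subunit of eIF2, which carries the first tRNA, read 9.51 and 8.95 in total and 11.57 and 11.94 in polysomal RNA. Eif5, whose product triggers GTP hydrolysis by eIF2, read 9.95 and 10.72 against 13.07 and 13.16. Eif4e, for the cap-binding protein, read 7.82 and 7.76, which is dim, against 8.66 and 8.44. The groups did not overlap in any of the 3. They rose by 2.53 ± 0.29, 2.78 ± 0.45 and 0.76 ± 0.10 (limma adjusted p = 0.00281, 0.00721 and 0.00376). The 4 genes that fell were Mknk2, Eif4ebp1, Eif4ebp2 and Eif1b. Mknk2, for a kinase that phosphorylates eIF4E, fell by 1.52 ± 0.20 (adjusted p = 0.0041), and Eif4ebp1, for a repressor of eIF4E, by 1.59 ± 0.28 (0.00886). Eif4ebp1 was picked after its values were seen and did not pass without polysomal replicate 2 (adjusted p = 0.058). Eif4ebp2, for a related repressor, read -0.57 and did not pass without polysomal replicate 1 (0.0548), and Eif1b, for a start-site factor, read -0.79. The KI line gave -1.27 for Eif4ebp1 and 0.04 for Eif4e, and the difference of 0.72 between the lines for Eif4e had a limma adjusted p of 1. Eif4e was dim on every KI array, at 7.67 and 7.76 in total and 7.76 and 7.76 in polysomal RNA. Its KI difference can therefore not be read as an absence of enrichment. Without single WT arrays 6 to 12 members rose and 3 to 5 fell, the fewest rises without polysomal replicate 2.

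Chaperones fold new proteins, and their mRNAs were mostly enriched. Of 21 tested chaperone genes of the cytosol and mitochondrion, 13 rose and 8 did not pass, with a median of 0.88. Hspa9, for a mitochondrial Hsp70, read 11.53 and 11.002 in total and 13.71 and 13.95 in polysomal RNA. Hspd1, for the mitochondrial chaperonin, read 10.84 and 10.31 against 13.01 and 13.25. Cct8, of the CCT ring that folds actin and tubulin, read 10.61 and 10.36 against 12.62 and 12.83. These were high on both polysomal arrays, and rose by 2.56 ± 0.20, 2.55 ± 0.25 and 2.25 ± 0.20 (limma adjusted p = 0.00142, 0.002 and 0.00172). Of the 8 genes of the CCT ring 6 rose, with a median of 2.18. Of the 21 genes, 18 had a positive and 3 a negative difference. Hspe1, for the lid of the mitochondrial chaperonin, read -0.41 and the prefoldin gene Pfdn4 -0.47. Neither passed, and both were picked after their values were seen. Without polysomal replicate 2, 7 chaperone genes rose, 2 of them of the CCT ring. Of 29 genes of the endoplasmic reticulum's folding and entry machinery 10 rose and 4 fell, led by the disulphide isomerase gene Pdia3 (2.85 ± 0.24, adjusted p = 0.00164) and the translocon gene Sec63 (2.27 ± 0.19, 0.00164). In that list 5 to 11 members rose without single WT arrays.

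The proteasome degrades tagged proteins through a 20S core and a 19S regulator that unfolds them. Of 38 tested genes 18 rose and 3 fell, with a median of 0.71. Psmd14, for the enzyme that removes ubiquitin at the 19S lid, read 9.56 and 9.09 in total and 10.94 and 11 in polysomal RNA, and rose by 1.65 ± 0.16 (limma adjusted p = 0.00202). Psmc1, for a 19S ATPase, rose by 1.25 ± 0.13 (0.00233), and Psma3, of the core, by 1.06 ± 0.11 (0.00242). Of the 19S genes 11 of 16 rose, and of the core genes 4 of 15 rose and 1 fell. The difference between the subcomplexes was not tested. Psme4, for an activator of the core, rose by 2.60 ± 0.27 (0.00221), though its other probe read 0.32. Over the fits with 1 WT array left out, 8 to 20 members rose, the fewest without polysomal replicate 2.

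Splicing factors cut introns from pre-mRNA. Of 37 tested genes 17 rose and 5 fell, with a median of 0.99. Srsf1, a founding member of the SR proteins, read 10.52 and 10.18 in total and 13.35 and 13.27 in polysomal RNA, and rose by 2.96 ± 0.14 (limma adjusted p = 0.000565), with the same value from its other probe. Tra2a, a related splicing activator, rose by 2.67 ± 0.15 (0.000706). Of 10 hnRNP genes 7 rose, and of 9 SR and Tra2 genes 7 rose and 1 fell. The ring-forming Sm proteins of the snRNPs were mixed: of 5 genes 2 fell and 1 rose. Snrpd2 read 14.17 and 14.10 in total against 12.46 and 12.40 in polysomal RNA, and fell by 1.71 ± 0.08 (0.000565). Across the 4 fits lacking a WT array, 10 to 17 members of the splicing list rose and 3 or 4 fell.

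Histone mRNAs made during DNA replication end in a stem-loop without a poly(A) tail, and those of replacement histones carry a tail. Labelling that starts from the tail reads the first kind poorly, and the probes of near-identical histone genes can share signal. Of 33 tested replication-dependent genes 16 fell and 1 rose, with a median of -0.99. H2ac8 read 8.84 and 8.98 in total and 7.94 and 7.91 in polysomal RNA, and H2bc15 read 9.21 and 9.60 against 8.35 and 8.23. They fell by 0.99 ± 0.10 and 1.11 ± 0.14 (limma adjusted p = 0.00223 and 0.00353). Of 6 replacement genes 3 rose and 1 fell. H3f3b, for histone H3.3, read 10.87 and 10.89 in total against 12.91 and 12.99 in polysomal RNA, and rose by 2.07 ± 0.20 (0.00203). With 1 WT array left out, 10 to 17 replication-dependent genes fell.

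**Figure D4:**
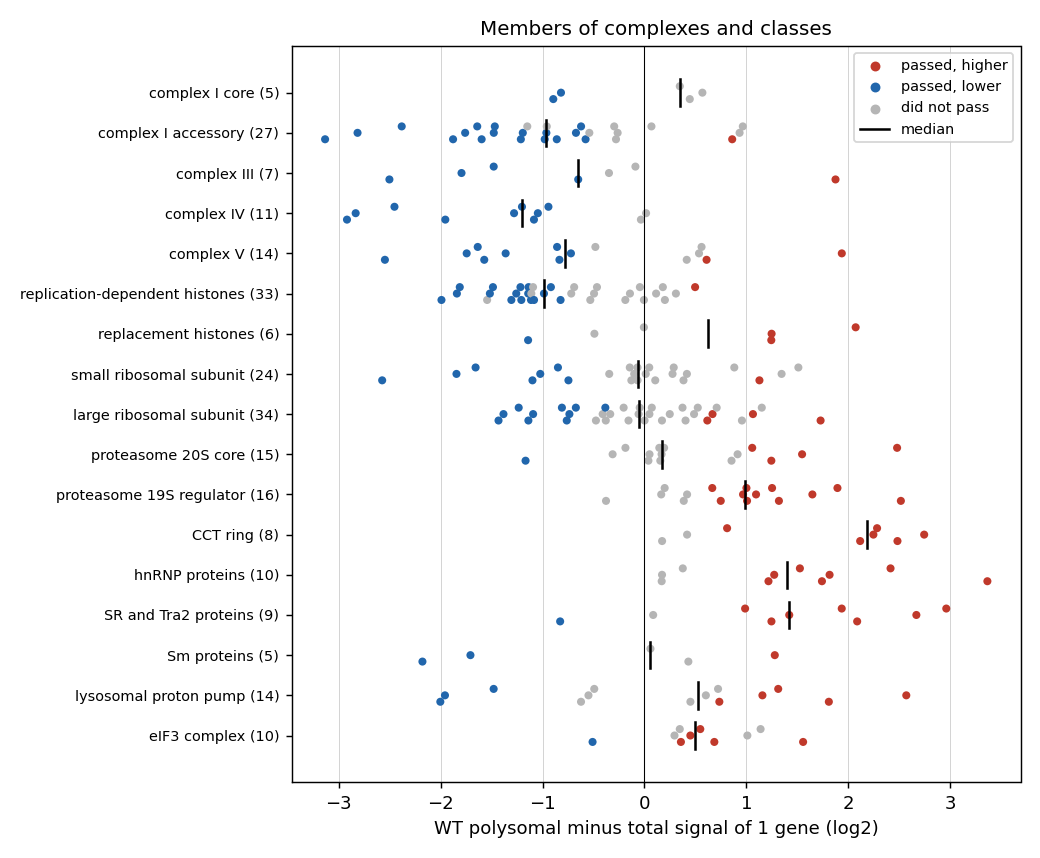
Polysomal minus total difference (log2, x axis) of each tested gene in complexes and classes (rows, number of genes in brackets), red where it rose, blue where it fell and grey where it did not pass, with the median as a bar. Of complex IV 9 of 11 genes fell, and of the 19S regulator 11 of 16 and of the CCT ring 6 of 8 rose.

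Small proteins were listed for their size and abundance. Of 31 tested genes 14 fell and 17 did not pass, with a median of -1.09. Nedd8, for a ubiquitin-like modifier, read 13.16 and 13.22 in total and 10.94 and 11.01 in polysomal RNA, and fell by 2.22 ± 0.14 (limma adjusted p = 0.000803). Atox1, for a copper chaperone, fell by 2.22 ± 0.23 and Dynlrb1, for a light chain of dynein, by 1.67 ± 0.16 (0.00221 and 0.00202). Selenoproteins insert selenocysteine at a stop codon, and of 14 tested genes 7 fell and 2 rose. Gpx1, for a peroxidase of the cytosol, read 14.33 and 14.37 against 12.30 and 12.07, and fell by 2.17 ± 0.13 (0.000803). Selenoh fell by 1.85 ± 0.29 (0.00626). The larger reductase gene Txnrd1, picked after its values were seen, rose (0.72), but not without either polysomal array (limma adjusted p = 0.0596 and 0.0591). Without polysomal replicate 2, 9 small protein genes and 4 selenoprotein genes fell.

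Size could be followed over all genes only through the genomic span, introns included, which was chosen after the values were seen. Tested genes were put in 5 bins of equal size. Of the shortest bin, with spans from 107 to 6959 bases, 5.15% rose and 30.0% fell. Of the longest bin, above 58809 bases, 33.5% rose and 5.67% fell. The 3 bins between rose in 12.9%, 21.9% and 31.7% and fell in 23.9%, 16.2% and 8.72%. Median total signal dropped from 9.11 in the shortest bin to 8.05 in the longest, so brightness moved with span. Among bright genes alone, those above the upper quartile of probe means, 6.28% of the shortest and 44.5% of the longest bin rose, and 43.9% and 9.03% fell. Their median total signal also dropped, from 10.66 in the shortest bin to 8.98 in the longest, so brightness was not held fixed there. Without ribosomal, mitochondrial ribosomal, respiratory and histone genes, 5.26% and 33.6% rose and 28.3% and 5.62% fell. No protein length was used here.

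**Figure D5:**
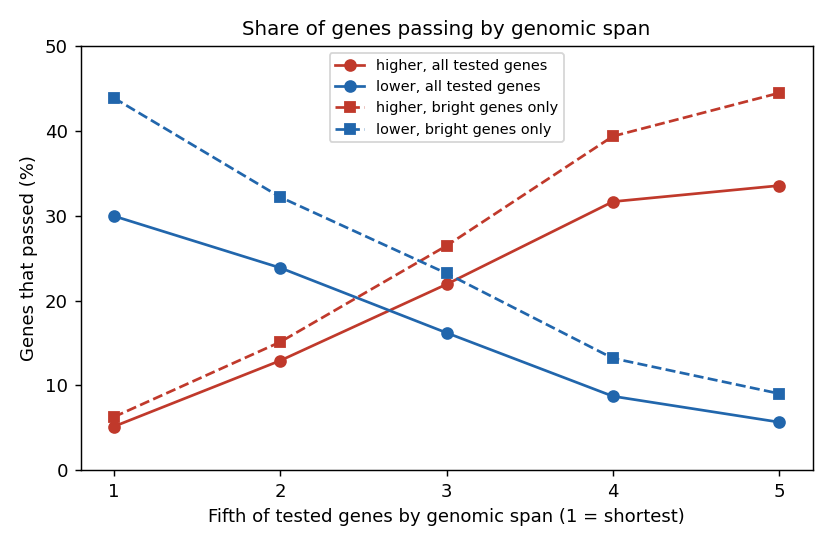
Percent of genes that rose (red) and fell (blue) in each of 5 equal bins of tested genes by genomic span (x axis, shortest first), for all tested genes (solid) and for bright genes (dashed). Rises climb from 5.15% to 33.5% and falls drop from 30.0% to 5.67% over all tested genes.

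Surface receptors relay signals and adhesion. Of 45 tested genes 14 rose and 3 fell. Itgb1, for the beta 1 integrin, read 8.26 and 8.41 in total and 9.97 and 10.38 in polysomal RNA, and rose by 1.84 ± 0.19 (limma adjusted p = 0.00231), with 0.82 from its other probe. Nrp1, for a co-receptor of VEGF, rose by 2.46 ± 0.22 (0.00168) with 2.53 from its other probe, and Egfr by 1.68 ± 0.21 (0.00331), although its 3 other probes read 0.16 to 0.27. The heparan sulphate carriers split: Sdc2 rose by 1.83 ± 0.24 (0.00403), and Sdc1 (-0.89) and Sdc4 (-1.04), picked after their values were seen, fell but lost the call without 5 and 3 of the arrays in turn. Of 36 matrix genes 3 rose, 4 fell and 29 did not pass, which is 8.33% and 11.1%. The collagen type 1 genes Col1a1 and Col1a2 read -0.56 and -0.23 and did not pass. Over the fits with 1 WT array left out, 6 to 12 receptor genes rose, and 1 to 3 matrix genes.

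Of 42 tested genes of DNA replication and mitosis 14 rose and 2 fell, with a median of 0.44. Top2a, for the topoisomerase of mitosis, read 9.25 and 8.94 in total and 11.29 and 11.43 in polysomal RNA, and rose by 2.27 ± 0.15 (limma adjusted p = 0.000945). Mcm4, of the replicative helicase, rose by 2.60 ± 0.22 (0.00164), but its other 2 probes read 0.37 and 0.41. The eIF4E-sensitive mRNAs, growth and survival genes held to depend on the cap-binding protein, gave 3 rises among 17. Mcl1, for a survival protein, rose by 1.502 ± 0.18 (0.00317) and Hif1a, for the hypoxia factor, by 0.98 ± 0.09 (0.002), and the list's median was 0.03. Across the 4 fits lacking a WT array, 8 to 16 replication genes rose.

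Some mRNAs are known for control of their own translation, and they did not move one way. Oaz1, for antizyme, which represses polyamine synthesis and is read through a frameshift, read 13.69 and 13.88 in total and 11.67 and 11.99 in polysomal RNA, and fell by 1.96 ± 0.23 (limma adjusted p = 0.00292). Oaz2, its paralog, fell by 0.71 ± 0.10 (0.00484). Amd2, for an enzyme of polyamine synthesis, rose by 0.72 but not without polysomal replicate 2 (limma adjusted p = 0.0727), and Eprs, for a tRNA synthetase induced by stress, by 1.78 ± 0.28 (limma adjusted p = 0.00664). The other Eprs probe gave 0.70. Atf4 and Atf5, stress factors whose upstream reading frames hold back translation in unstressed cells, were picked after their values were seen. Atf4 read 11.62 and 12.31 against 10.38 and 10.59, and Atf5 10.90 and 11.78 against 9.31 and 9.74. They fell by 1.48 ± 0.33 and 1.82 ± 0.45 (0.0183 and 0.0257), and each lost its call without 3 of the arrays in turn. Over the list of 36 stress-response genes and mRNAs with upstream frames, 8 rose and 5 fell, and without total replicate 2 or either polysomal array 5, 7 and 3 rose and the rest did not pass. Of 8 polyamine genes 1 rose and 2 fell. Of 6 genes listed under iron-responsive elements 2 rose, Tfrc and Ireb2, and 2 fell. Whether each listed mRNA carries such an element was not checked. The 2 that fell, Sdhb (-0.57) and Slc11a2 (-0.42), lost the call without any 1 of the 4 WT arrays. Tfrc, for the transferrin receptor, whose mRNA is stabilised through iron-responsive elements when iron is scarce, read 9.58 and 10.00 against 11.92 and 12.87, and rose by 2.61 ± 0.50 (0.0117). It did not pass without polysomal replicate 2 (0.0669). Fth1, for ferritin, read -0.31 and did not pass.

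Of 36 lysosome genes 9 rose and 6 fell, with the proton pump divided between Atp6v1a, for a catalytic subunit (1.81 ± 0.16, limma adjusted p = 0.00165), and Atp6v1f, for a small one (-2.002 ± 0.22, 0.00256). Of 131 zinc finger genes 29 rose and 16 fell. Of 28 actin and myofibroblast genes 9 rose and 1 fell, with Vcl, for vinculin, up by 1.15 ± 0.16 (0.00448), and of 17 tubulin and motor genes 6 rose and 11 did not pass. Of 32 immediate early genes 3 rose and 4 fell, Klf6 rising by 2.71 ± 0.23 (0.00165) and Jund falling by 0.75 ± 0.11 (0.00586). The other Klf6 probe gave 1.31. Of 18 cholesterol genes 6 rose and 2 fell, of 15 glycolysis genes 2 rose and 13 did not pass, and of 20 cytokine genes 3 rose and 17 did not pass. With 1 WT array left out, the rises ran from 0 to 3 among cholesterol genes, 2 to 7 among actin genes, 0 to 1 among glycolysis genes, 1 to 6 among cytokine genes, 4 to 8 among lysosome genes and 10 to 19 among zinc finger genes. The most cytokine genes rose without total replicate 1, and the fewest zinc finger and lysosome genes without polysomal replicate 2. Of 10 tested fibroblast markers 2 rose and 3 fell, of 4 neural markers 1 rose, and the 3 epithelial, 3 muscle and 1 endothelial markers and 2 non-coding RNAs did not pass.

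Of the study's 6 targets, chosen by the study on these samples, 1 rose, Birc2, with 2.65 and 3.52 in the experiments. Ccl7, for a monocyte chemokine, read 12.45 and 8.47 in total RNA and 12.53 and 12.98 in polysomal RNA. Ccl2, its relative, read 11.63 and 8.21 against 11.63 and 11.47. Both were level in experiment 1 and far higher in polysomal RNA in experiment 2, where the total array was low. Their differences of 2.30 ± 1.18 and 1.63 ± 1.01 did not pass (limma adjusted p = 0.181 and 0.256). Mmp3 (2.04), Vegfc (1.17) and Nfkbia (0.71) did not pass either. The median difference of the 6 targets was 3.03 without total replicate 1 and 0.37 without total replicate 2. Interferon response genes had medians of -0.02 and 1.15 in the experiments, with 3 of 26 rising. Over the fits with 1 WT array left out, their median ran from 0.061 to 0.92.

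The same contrast in the KI line gave 1897 higher and 1381 lower genes. Of the genes higher in WT, 1570 were higher in KI, which is 84.5% of the WT and 82.8% of the KI list, and 1174 were lower in both, 78.8% and 85.0% of the lists. Fits to each line's own 4 arrays, with no shared spread, gave 1064 genes higher in both (67.3% and 73.9%) and 770 lower in both (63.2% and 68.8%). The test of the difference between the lines passed for 0 genes in limma, and 2.25% of genes had an unadjusted p under 0.05. Closest by p was the position gene Hoxb2, which read 9.16 and 9.20 in WT total and 8.198 and 7.959 in WT polysomal RNA and differed between the lines by -1.09 ± 0.14 (adjusted p = 1). A call missing in one line does not show that the lines differ.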

How the data were processed

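The deposited table of the 8 arrays held values that the authors had processed with lumi, per the submitters' processing notes. How they were background-corrected and normalized, and to which log base, is not given in the sources used here. The range and equal medians of the deposited values are those of normalized log2 signals, and they were read as such. A second deposited table held 8 columns of per-sample values that could not be tied to single samples, and it was not used. Probes were named by the platform annotation and updated to RefSeq symbols (GRCm38.p6) by gene ID for 23962 of 23978 probes. Probes with a mean over 8 arrays above 7.729, the median of probe means, were kept, with the brightest probe standing for a gene. Of 1061 passing genes with another probe above the filter, 999 had every other probe of the same sign. Other probes could read nearer to no difference and are given for some genes only. The linear model of limma 3.58.1 (R 4.3.3) held a mean for each of 4 groups, used all 8 arrays and had no block, and p-values were adjusted by Benjamini and Hochberg over 8832 genes. The steps were tested on simulated data.

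The labels give the same source name to the total and polysomal array of a line and number, which pairs them. The deviations of paired arrays from their group means correlated at 0.05 in WT and 0.58 in KI. The arrays come from 2 experiments on 1 line per genotype. The p-values therefore measure a spread between experiments pooled over the WT and KI lines, and 2 arrays per group limit the precision.

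The members, gene lists and tests were chosen with earlier results of these data known. Genes named were the 10 largest rises and 10 largest falls, and at most 4 members of smallest p in each list, passing or not. The study's 6 targets with Eif4e and the 5 smallest p for the difference between lines were also named. Any others, Rps6 and Fth1 among them, were picked after their values were seen. Complexes within lists, genomic spans and symbol families were grouped after the data were seen. Alternatives were other filters, quantile normalization, median centring, the mean of a gene's probes, each line's own arrays, the shared source name as a block, and each array left out.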

Additional observations from a re-analysis of the deposited data

Results flagged for a closer look

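The 4 tested neural marker genes had a median polysomal minus total difference of -0.022 (log2) in WT, with -0.042 and -0.0019 in the experiments, against 0.35 and 0.055 in the KI line. Both WT values were below 0 and both KI values above it. The 4 genes did not move together in WT, where 2 were positive and 2 negative. Map2 read 7.79 and 7.93 in total against 8.65 and 8.52 in polysomal RNA, and Nes 9.22 and 9.70 against 8.65 and 9.57. Sox2 and Tubb3 were dim, not exceeding 7.74 and 7.93 on any WT array. The difference was not tested.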

How the results depend on the processing

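Asking also for a difference over 1 log2 unit left 864 higher and 661 lower genes in WT. With the replicate block (the source name that paired arrays share) 1954 rose and 1652 fell in WT, and 1966 and 1564 in KI. For the difference between lines 0 passed, and the block ended the call of 3 of the named genes. Leaving out 1 of the 8 arrays gave 851 to 1925 higher and 556 to 1607 lower genes in WT, 896 to 1953 and 518 to 1580 in KI, and 0 to 7 for the difference, with 7 without WT total replicate 1. Of 154 named genes 128 passed, and 97 of these passed under every setting run; none that passed reversed. Without a filter on dim probes 16 lost the call, with the line's own 4 arrays 12, and without WT polysomal replicate 2 27. Differences that did not pass and turned sign, with their range over the fits lacking 1 array, were Kdr (-0.13 to 0.066), Nes (-0.81 to 0.12), Myog (-0.12 to 0.044), Ccl2 (-0.083 to 3.34), Irf7 (-0.011 to 0.22) and Arhgef18 (-0.0026 to 0.15); the cause was not tested. A lone array left in a group was assumed to vary like the other groups. The planned split by protein length was not run.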

Other observations

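Families sharing the letters of their symbol, grouped after the data were seen and with at least 12 tested genes, extended the description beyond the lists. Over all tested genes 21% rose and 16.9% fell, and these shares stand beside every family below. Many of the family counts shrank when 1 WT array was left out, and the range over those 4 fits follows each. Rises over all tested genes shrank in each of these fits too, and falls in all but the fit without total replicate 1. The shrinkage is therefore not particular to a family. RNA helicases of the Ddx family gave 13 rises (9 to 12) among 23 genes with a median of 1.13, and Dhx helicases 5 rises (2 to 5) among 14. Nuclear pore genes (Nup) gave 9 rises (1 to 9) among 13, and kinesins (Kif) 11 (4 to 8) among 19. Centrosome genes (Cep) gave 10 rises (3 to 10) among 20, and ubiquitin proteases (Usp) 11 (4 to 10) among 30. The fewest rises came without polysomal replicate 2 for Nup, Kif, Usp and Dhx genes and without polysomal replicate 1 for Cep genes.

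Among families with more falls than rises, Lsm, for RNA-binding ring proteins, gave 7 falls (3 to 5) among 12. Abhd hydrolases gave 8 falls (1 to 7) among 16, with 1 without polysomal replicate 1 and 2 without total replicate 2. Nudt hydrolases gave 9 falls (1 to 8) among 18, with 1 without polysomal replicate 2 and 3 without total replicate 2. In the KI line 5 Abhd and 4 Nudt genes fell. Tmem genes, named only for a membrane span, gave 40 falls (19 to 33) among 118, the fewest without polysomal replicate 2. The 71 tested olfactory receptor genes had a median of -0.03.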
